A study of Mus musculus with 6 samples.

Results

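Cell-surface glycoproteins of the uterus were followed through 9 genes, Muc1, Muc4, Muc13, Muc15, Muc16, Muc20, Cd44, Podxl and Mcam, taken by symbol from the 37060 genes of the deposited table. Whole uterus was collected on gestation day 5, around the time at which mouse embryos attach. RNA was sequenced from 3 SRC-2f/f mice (controls 1 to 3), whose SRC-2 gene carries recombination sites. It was also sequenced from 3 SRC-2d/d mice (mutants 1 to 3), in which SRC-2 is deleted in whole or in part. Each library came from a different mouse. The sources used here do not give the deleting recombinase, the cells in which it acts, or the strain and age of the mice. SRC-2, the product of Ncoa2, helps steroid receptors to activate their target genes, and the question was which genes depend on it in implantation.

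Transmembrane mucins are long rods covered with O-linked sugars that stand above the epithelial surface, hold other cells at a distance, and can be cut off the cell by sheddases. In mice Muc1 is part of the coat of the luminal epithelium, and its loss from that surface around implantation is a classic sign of receptivity. The set is mixed in structure: Muc1, Muc4, Muc13, Muc15, Muc16 and Muc20 are named mucins, Podxl is a sialomucin of the CD34 family, Cd44 is the receptor of hyaluronan, and Mcam is an adhesion molecule of the immunoglobulin superfamily that carries a mucin number only as an alias. The common label therefore describes the position of the proteins at the cell surface more than their type.

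The values are normalized counts, that is, reads assigned to a gene divided by a size factor of the library, and are not corrected for gene length. Each library had 129905950 to 195782326 reads in genes. Ncoa2 stood at 13207, 13090 and 14495 in controls 1 to 3 and at 7620, 6667 and 7409 in mutants 1 to 3, so that every library lay on the side its label gives (log2 difference -0.91, SE 0.20, adjusted p = 0.00953; not called without control 2, at -0.94, or control 3, at -0.86). Neither the deleted part of the gene nor the cells that lose it are stated. Reads from the rest of the gene and from cells that keep it would both count, and their shares were not tested. The fixed markers of uterine epithelium, stroma, endothelium and smooth muscle were all read. All 9 members passed the filter of a mean of at least 0.5.

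The promoters of 3 members are shown because Muc1, Muc4 and Muc20 were the members that rose. The sequences are the 250 bases before the gene start in RefSeq (build GRCm38.p6), read 5′ to 3′ on the gene's strand, at chr3:89228806-89229055 (+) for Muc1, chr16:32735636-32735885 (+) for Muc4 and chr16:32797436-32797685 (-) for Muc20. The sources used here do not name the build behind the deposited counts. Capitals mark matches to the 7 motifs searched on both strands.
Muc1: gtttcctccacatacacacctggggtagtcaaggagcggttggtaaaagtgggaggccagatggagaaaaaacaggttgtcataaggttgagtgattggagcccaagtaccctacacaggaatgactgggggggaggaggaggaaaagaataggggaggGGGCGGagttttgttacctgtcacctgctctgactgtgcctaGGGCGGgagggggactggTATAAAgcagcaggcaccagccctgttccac
Muc4: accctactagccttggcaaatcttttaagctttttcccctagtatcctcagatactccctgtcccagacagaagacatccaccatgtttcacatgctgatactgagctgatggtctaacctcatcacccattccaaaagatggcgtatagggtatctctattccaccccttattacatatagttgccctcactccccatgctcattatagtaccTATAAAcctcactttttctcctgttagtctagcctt
Muc20: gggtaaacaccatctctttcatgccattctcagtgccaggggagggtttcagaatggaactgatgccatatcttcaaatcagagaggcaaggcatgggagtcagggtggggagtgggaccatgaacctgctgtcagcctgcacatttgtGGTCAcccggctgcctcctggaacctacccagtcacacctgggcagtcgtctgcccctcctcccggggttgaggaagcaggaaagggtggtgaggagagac
The motifs were the estrogen response element GGTCANNNTGACC, its arm GGTCA, the progesterone or glucocorticoid receptor arm TGTTCT, the STAT motif TTCNNNGAA, the grainyhead motif AACCNGGTT, the GC box GGGCGG and the TATA box TATAAA; the arm GGTCA also lies within the whole estrogen element. The Muc1 window held TATAAA starting 31 bases before the gene start and GGGCGG starting 49 and 91 bases before it. The Muc4 window held TATAAA starting 36 bases before the start and no other match, and the Muc20 window held GGTCA 101 bases before it and no other match. Among 32851 promoter windows of the same length, 12.4% held TATAAA, 32.7% GGGCGG and 35.2% GGTCA, while the whole estrogen element occurred in 0.0639%. None of the motifs was found in all 3 windows. Their GC content was 54.8% in Muc1, 43.6% in Muc4 and 57.2% in Muc20 against a median of 52.4%. Matches are letters only and say nothing of binding. Of the 9 members 7 were found in the promoter table, and Muc15 and Podxl were not matched.

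Muc1, Muc4 and Muc20 rose in the mutants, Mcam fell, and the other 5 members were not called. By limma with Benjamini-Hochberg adjustment, 5.34% of the 36154 genes tested were called higher and 4.08% lower in mutants, 9.42% in either direction. The members were named with results of these data known, so their share is a description. The median log2 difference was 0.10 over the members and -0.01 over all genes tested. In bulk tissue, a change in the number of cells of a type and a change in RNA per cell cannot be told apart.

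**Figure D1:**
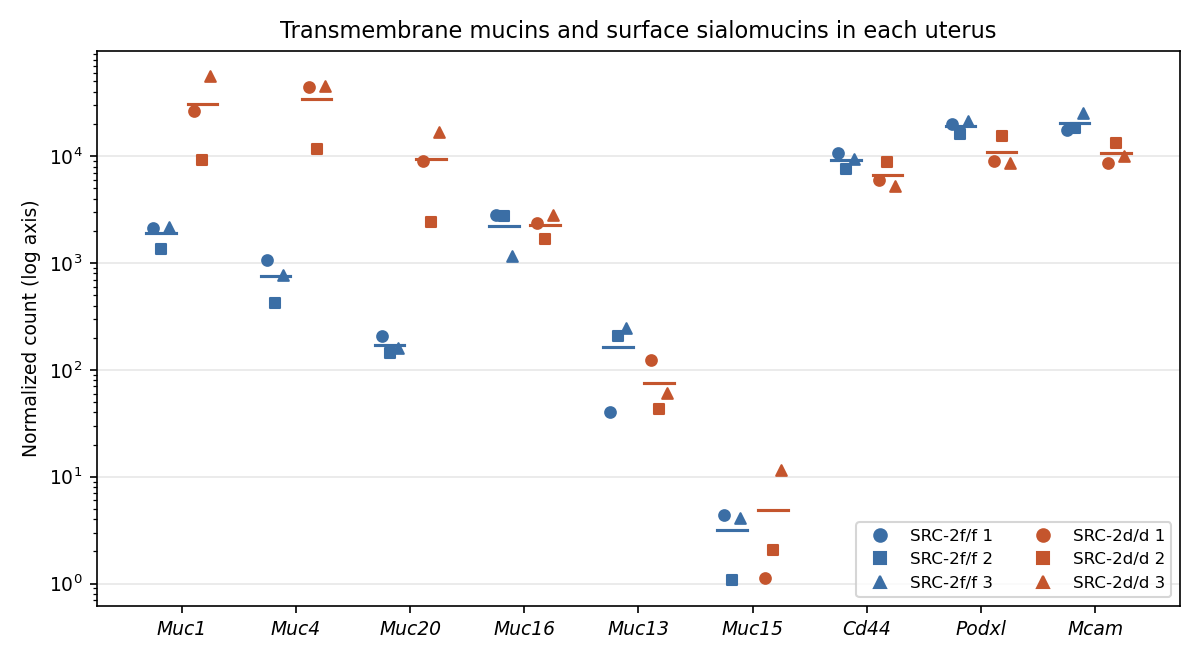
Normalized counts of the 9 members (y, log axis) in each library, with SRC-2f/f controls in blue, SRC-2d/d mutants in orange, symbols for replicates 1 to 3 and a line at each group mean. The mutants lie above all controls for Muc1, Muc4 and Muc20 and below all controls for Podxl and Mcam, and the groups overlap for the other members.

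Muc1, the mucin of the luminal surface, stood at 2140, 1362 and 2181 normalized counts in controls 1 to 3 and at 26583, 9286 and 56321 in mutants 1 to 3. The lowest mutant was thus above the highest control, and the mutants differed widely among themselves, with mutant 3 highest and mutant 2 lowest. The means of 1895 ± 461 and 30730 ± 23790 (SD, n = 3) gave a ratio of 16.2, which was 9.47 without mutant 3. The difference came to 3.70 on the log2 scale (SE 0.47, adjusted p = 0.000177), and every fit that left out 1 library kept the call, at 3.08 to 4.38. An eBayes fit with no trend ended the call at an adjusted p of 0.0520, the highest of 19 alternatives, the lowest being 2.37e-16.

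Muc4, a large mucin whose membrane subunit binds the receptor ERBB2 in the rat, stood at 1061, 421 and 774 in controls 1 to 3 and at 44583, 11561 and 45823 in mutants 1 to 3. Mutants 1 and 3 were almost level and mutant 2 was again the lowest of the mutants. The mean rose from 752 ± 320 to 33989 ± 19433 (SD, n = 3), 45.2-fold, with a log2 difference of 5.35 (SE 0.46, adjusted p = 6.07e-06). The call held in all 19 alternatives, at an adjusted p of 1.20e-32 to 0.0201.

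Muc20, a small mucin that binds the receptor MET in human cells, stood at 209, 143 and 162 in controls 1 to 3 and at 9077, 2414 and 16698 in mutants 1 to 3. The controls were within a narrow band and the mutants kept the order seen for Muc1, mutant 3 being highest and mutant 2 lowest. The mean rose from 171 ± 34.0 to 9396 ± 7147 (SD, n = 3), 54.8-fold and 33.5-fold without mutant 3, with a log2 difference of 5.39 (SE 0.51, adjusted p = 1.40e-05). The call held in all 19 alternatives, at an adjusted p of 1.13e-31 to 0.0240.

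Muc4 and Muc20 are neighbours that run towards each other on opposite strands and overlap by 4973 bases at their 3′ ends in GENCODE M21. Of these, 627 bases are exonic in both genes, 5.33% of the exon bases of Muc4 and 15.6% of those of Muc20. The kit marks strand, but the sources used here do not give the strand setting of the counting, so reads of the shared bases cannot be told apart if strand was ignored. The normalized count of Muc20 was 19.7%, 34.0% and 20.9% of that of Muc4 in the 3 controls, and 20.4%, 20.9% and 36.4% of it in the 3 mutants. The ranges of this ratio overlapped between the genotypes, with control 1 the lowest library and mutant 3 the highest.

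None of the tested neighbours of Muc1, Muc4 and Muc20 was called. Next to Muc1, Trim46 lay 0.8 kb away in GENCODE M21 and had a log2 difference of -0.01 (adjusted p = 0.993), and Mtx1 lay 2.0 kb away and had -0.38 (adjusted p = 0.363). Next to the Muc4 and Muc20 pair, Tnk2, a kinase gene, had -0.34 (adjusted p = 0.485), Rubcn, a regulator of autophagy, -0.49 (adjusted p = 0.167) and Tfrc, the transferrin receptor gene, 0.17 (adjusted p = 0.729). The share called in either direction over all genes tested was 9.42%. Among all 32 neighbours, up to 2 on each side of every member, 24 were tested and 2 were called, both lower. These were Slc12a8 at 129.9 kb from Muc13 (-1.59, adjusted p = 0.0176) and Fibin at 358.2 kb from Muc15 (-1.16, adjusted p = 0.0360). Slc12a8 was not called without control 2 (-1.61), control 3 (-1.32) or mutant 1 (-1.50). Leaving out any library other than mutant 2 ended the call of Fibin (-1.30 to -0.97).

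Muc16, whose human protein carries the CA125 antigen of endometrium and of the mesothelium that lines organs, stood at 2789, 2738 and 1173 in controls 1 to 3 and at 2354, 1684 and 2805 in mutants 1 to 3. The groups overlapped over most of their range, and control 3 was the lowest library. Its log2 difference was 0.10 (SE 0.33, adjusted p = 0.892) and changed sign to -0.31 without control 3 and to -0.06 without mutant 3. The mesothelial markers Msln, Upk3b, Upk1b, Lrrn4, Gpm6a and Wt1 were all read, with a summed level of 40454 to 54856 in controls and 29820 to 45467 in mutants. The lower sum in mutants came from Wt1, which uterine stroma also expresses and which was the only marker called (from 30343 ± 7441 to 11368 ± 3561, log2 difference -1.44, adjusted p = 0.00419, not called without control 3). The other 5 were not called and had log2 differences above 0, at 0.91 for Msln, 0.65 for Upk3b, 0.56 for Lrrn4, 0.54 for Gpm6a and 0.40 for Upk1b, and the median of the list was 0.55. Without mutant 2, 1 marker of the list was called higher. Their part in the level of Muc16 was not tested.

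Muc13, known from the surface of gut epithelium, stood at 40.4, 206 and 245 in controls 1 to 3 and at 124, 42.6 and 61.2 in mutants 1 to 3. Control 1 lay below every mutant, so the groups overlapped, and the log2 difference of -0.88 (SE 0.66) was not called (adjusted p = 0.490). It was -1.70 without control 1 and -0.41 without control 3. An antisense gene, Gm15657, overlaps 6.06% of the exon bases of Muc13. Gm15657 stood at 5.27, 17.1 and 5.09 in controls 1 to 3 and at 56.8, 32.2 and 36.4 in mutants 1 to 3. Its log2 difference of 2.23 was not called (adjusted p = 0.0643). Reads of the shared bases cannot be told apart if the counting ignored strand.

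Muc15, a mucin first found in milk fat membranes, was near the limit of detection. It had 5, 1 and 4 reads in controls 1 to 3 and 1, 2 and 14 reads in mutants 1 to 3, where 3 reads is the limit that a count of 0 allows. Mutant 3 alone stood out, and the adjusted p was 0.937. No fold is given at this depth. The gene lies within Ano3, on the opposite strand, and shares 1.71% of its exon bases with it.

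Cd44, which binds hyaluronan and osteopontin, stood at 10818, 7505 and 9403 in controls 1 to 3 and at 6024, 8744 and 5209 in mutants 1 to 3. Mutant 2 lay among the controls, and the means were 9242 ± 1662 and 6659 ± 1851 (SD, n = 3). The log2 difference of -0.49 (SE 0.24) was not called (adjusted p = 0.254, and 0.0679 to 0.528 over 19 alternatives). Its counts join all splice forms, which the table does not separate.

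Podxl, the sialomucin podocalyxin of podocytes and vessel walls, which in human endometrium is also a barrier of the luminal surface, stood at 19935, 16153 and 21427 in controls 1 to 3 and at 8952, 15472 and 8627 in mutants 1 to 3. All mutants lay below all controls, but mutant 2 only just. The mean was 57.5% of the control level, with a log2 difference of -0.84 (SE 0.25) and an adjusted p of 0.0506, just outside the threshold. It was called without mutant 2 (-1.12, adjusted p = 0.00407), with quantile normalization, with equal library totals and with robust eBayes, at an adjusted p of 0.00407 to 0.258 over 19 alternatives.

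Mcam, an adhesion molecule of endothelium, pericytes and smooth muscle, stood at 17556, 18525 and 25513 in controls 1 to 3 and at 8616, 13306 and 10079 in mutants 1 to 3. The groups did not overlap. Among all genes tested, the mutants lay wholly below the controls in 12.1% and wholly above them in 13.4%, together 25.5%. The mean fell from 20531 ± 4342 to 10667 ± 2400 (SD, n = 3), 52.0% of the control level, with a log2 difference of -0.95 (SE 0.23, adjusted p = 0.0204). The call was lost without control 2 (-1.01), control 3 (-0.78), mutant 1 (-0.81) or mutant 3 (-0.92) and with eBayes without trend (-0.95), and the adjusted p was 0.00556 to 0.180 over 19 alternatives.

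Some markers of the vessel wall and of the stroma were also lower in mutants. Of 7 endothelial markers 5 were called lower (Pecam1, Cdh5, Kdr, Tie1 and Emcn) and 0 higher by limma, edgeR also called 5 lower and 0 higher, and 0 were higher at an unadjusted p under 0.05. With 1 library left out limma called 2, 1 and 0 of them lower without controls 1 to 3 and 2, 7 and 2 without mutants 1 to 3. Their summed level was 100066 to 162491 in controls and 40001 to 82286 in mutants, with mutant 2 the highest mutant as for both members. Of 6 pericyte markers 1 (Rgs5) was lower, with sums of 70327 to 94152 and 34147 to 61550, and of 5 smooth-muscle markers 1 (Des) was lower, with sums of 643659 to 698289 and 395841 to 530251. At an unadjusted p under 0.05, 4 and 3 markers of these lists were lower. Without mutant 2, 4 and 3 were called, without control 3 neither list had a call, and without mutants 1 and 3 the smooth-muscle list had 0. Of 7 stromal markers 3 (Vim, Pdgfra and Hand2) were lower and 0 higher, at a median log2 difference of -0.74, with sums of 1733000 to 2398350 in controls and 929338 to 1818560 in mutants, mutant 2 again being the highest mutant. That count was 2, 2 and 1 without controls 1 to 3 and 2, 4 and 2 without mutants 1 to 3. Lower calls over all genes moved in these fits too, from 1476 with all libraries to 906, 452 and 315 without controls 1 to 3. Without mutants 1 to 3 they were 819, 2813 and 761. The part of these cell types in the levels of Podxl and Mcam was not tested.

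**Figure D2:**
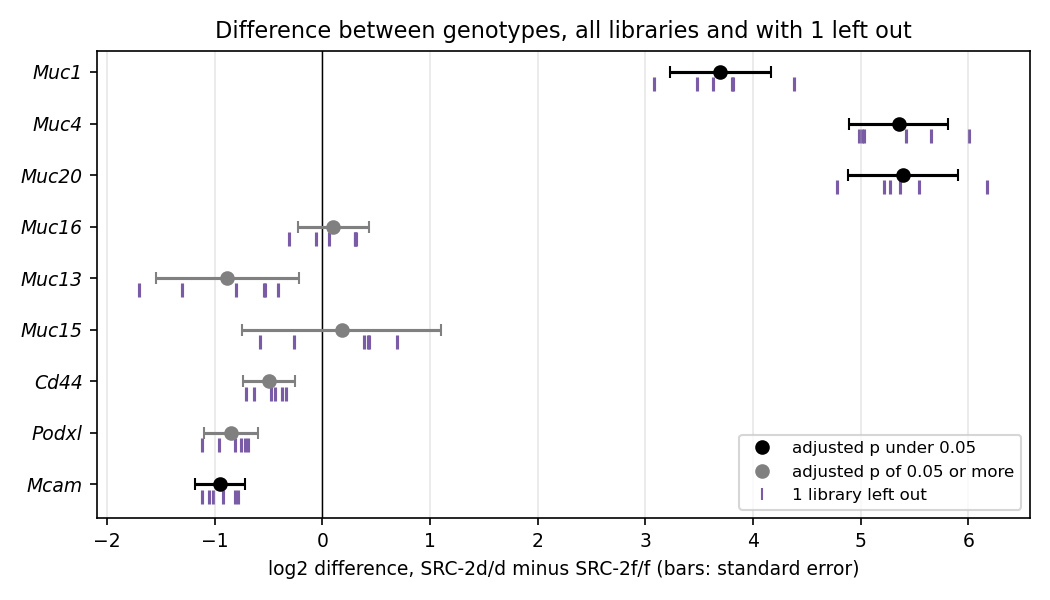
Log2 difference of each member (x, SRC-2d/d minus SRC-2f/f, on log2 of the normalized count + 1) with its standard error, in black where called, and ticks for the 6 fits that left out 1 library. Muc1, Muc4 and Muc20 lie at 3.70 to 5.39 and stay far above 0 in every such fit, while Muc15 and Muc16 fall on both sides of 0.

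The exact two-sided permutation test gave p = 0.1 for Muc1, Muc4, Muc20, Podxl and Mcam, the smallest that 3 against 3 mice allow. The same exact permutation test gave p = 0.2 for Cd44, 0.4 for Muc13, 0.8 for Muc16 and 0.9 for Muc15.

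Levels of different genes were compared per kb of exon, with the merged exons of GENCODE M21. The annotation behind the deposited counts is not given, so the bases counted may differ from these lengths. How evenly reads covered each gene was not tested either, so the order between genes is approximate. In controls Mcam was the highest at 6129 ± 1296 normalized counts per kb (SD, n = 3), followed by Podxl at 3493 ± 495, Cd44 at 1364 ± 245 and Muc1 at 808 ± 197. No library of any of these 4 genes reached the range of the next. Muc16, Muc4, Muc13 and Muc20 followed at 84.8, 64.0, 54.0 and 42.6 with overlapping ranges, and Muc15 came last at 0.891.

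In mutants Muc1 led at 13099 ± 10141 normalized counts per kb, above Mcam at 3184 ± 716, Muc4 at 2891 ± 1653, Muc20 at 2333 ± 1775, Podxl at 2007 ± 704 and Cd44 at 983 ± 273. The ranges of neighbours in this order overlapped, except those of Podxl and Cd44, and Muc1 and Mcam met by the narrowest margin, with 3958 in mutant 2 for Muc1 and 3972 in the same mouse for Mcam. Muc16 was at 86.6, near its control level, and Muc13 was at 25.0, both clearly below. Muc1 was thus the fourth of the set in controls and the first in mutants, and Muc4 and Muc20 moved from the level of Muc16 to that of Podxl.

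**Figure D3:**
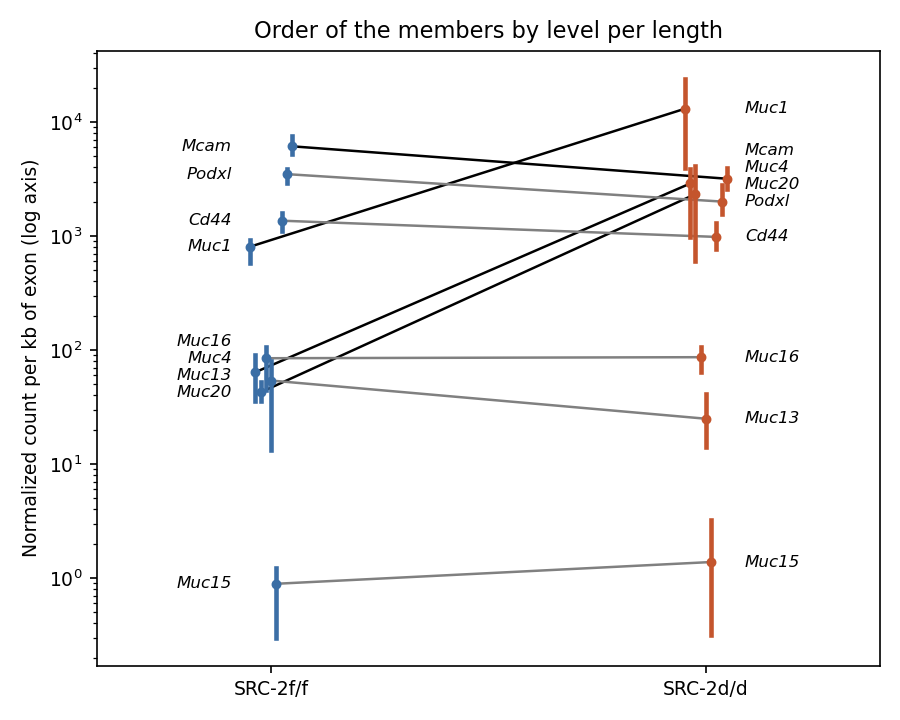
Normalized counts per kb of exon (y, log axis) in controls (left) and mutants (right), with the mean as a point, the range of the 3 libraries as a bar, and lines in black for called members. Muc1, Muc4 and Muc20 climb through the order, from 808, 64.0 and 42.6 to 13099, 2891 and 2333.

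Epithelial markers rose in the same libraries. Of the 10 fixed markers 9 were called higher (Krt8, Krt18, Krt19, Krt7, Epcam, Cdh1, Ehf, Elf3 and Esrp1), 0 lower, and Cldn4 was not called (log2 difference -0.07, adjusted p = 0.885). Their summed level was 99197 to 105861 in controls and 319360 to 766502 in mutants, with mutant 3 highest and mutant 2 lowest as for Muc1 and Muc20. The mean log2 level of the list was 13.04, 12.99 and 12.96 in the 3 controls, against 15.33, 14.76 and 15.92 in the 3 mutants.

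Each member was therefore also set against that mean within its library. Muc4 stood at -2.98, -4.27 and -3.36 on the log2 scale relative to the markers in controls 1 to 3 and at 0.12, -1.26 and -0.44 in mutants 1 to 3, a difference of 3.01. Muc20 differed by 3.05, from -5.58 ± 0.25 to -2.53 ± 0.87 (SD, n = 3). Muc1 differed by 1.36, with -1.97, -2.58 and -1.87 in controls and -0.63, -1.58 and -0.14 in mutants. The groups did not overlap for these 3 genes, so all 3 were higher in mutants relative to the mean of the epithelial markers too (exact two-sided permutation p = 0.1 each, the smallest possible). This does not hold against every single marker. The log2 differences of the markers themselves ran from -0.07 for Cldn4 to 4.52 for Elf3. Those of Muc4 and Muc20 lay above all of them, while that of Muc1, at 3.70, lay below Elf3 and above the other markers.

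Muc13, Muc16, Cd44, Podxl and Mcam went the opposite way on this scale, with differences of -2.24 for Muc16 to -3.29 for Mcam, and Muc15 was too low to be placed on it. Muc16, level between the genotypes as such, lay at -1.59, -1.57 and -2.76 relative to the markers in controls 1 to 3 and at -4.13, -4.04 and -4.47 in mutants 1 to 3. All signs held when any marker or any library was left out. The marker list itself differed between the genotypes, so these values give unequal change and not change as such. Its mean was higher in every mutant than in every control, so a gene with no change also falls on this scale. Most genes tested would do so, as their median log2 difference was -0.01. The downward signs are thus not a trait of these members.

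**Figure D4:**
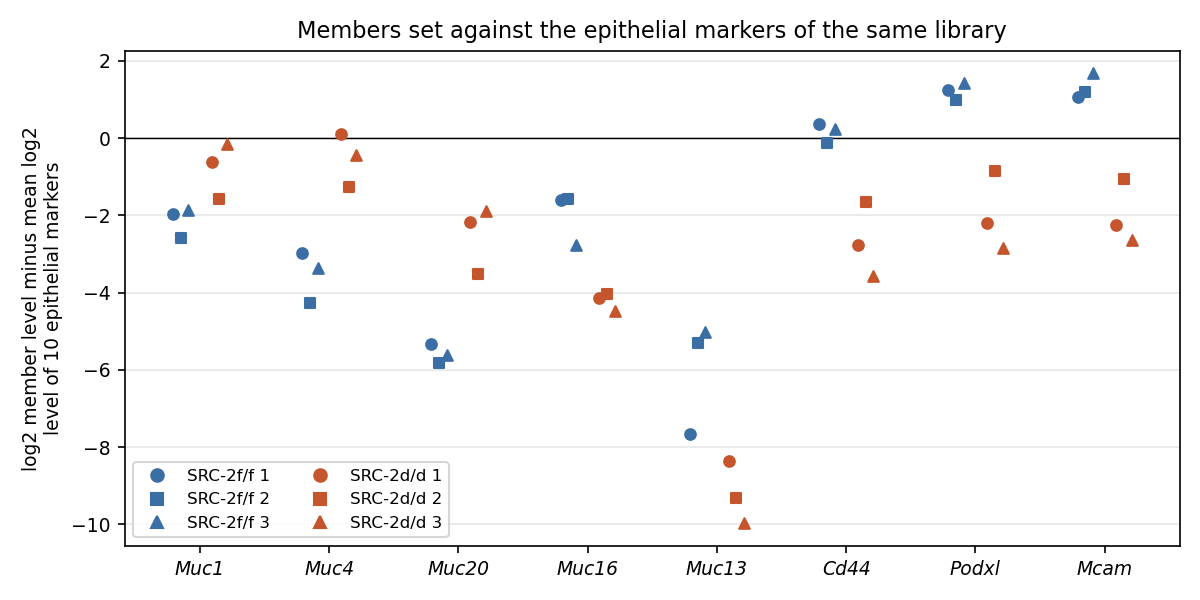
Log2 level of each member other than Muc15 minus the mean log2 level of the 10 epithelial markers of the same library (y), controls in blue and mutants in orange. The mutants lie above the controls for Muc1, Muc4 and Muc20, by 1.36, 3.01 and 3.05 on average, and below them for the other 5 members drawn.

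The companion genes were taken as lists chosen with earlier results of these data known. Their counts stand beside 5.34% called higher and 4.08% called lower over all genes tested. Emcn and Kdr of these lists are also endothelial markers above, and Msln is also a mesothelial marker, so these genes are counted more than once. Of 13 other mucins and sialomucins, 1 rose, 1 fell and 11 were not called, at a median log2 difference of -0.07. The riser was Ovgp1, the secreted oviductal glycoprotein, which went from 2087 ± 732 to 12390 ± 5059 normalized counts (2.55, SE 0.31, adjusted p = 0.000114). Emcn, the endothelial sialomucin endomucin, fell from 6400 ± 1594 to 2490 ± 1156 (-1.42, SE 0.30, adjusted p = 0.00842), a call lost without control 2 (-1.41) or control 3 (-1.25). The gel-forming mucins Muc2, Muc5ac, Muc5b, Muc6 and Muc19 were low, with group means of 1.89 to 383, and none was called.

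Of 6 genes that tie surface glycoproteins to actin 2 rose, 0 fell and 4 were not called. Ezr, which encodes ezrin of the microvilli, rose from 28604 ± 1290 to 74014 ± 22597 (1.33, SE 0.24, adjusted p = 0.00319). Slc9a3r1, the scaffold that binds ezrin, rose from 8265 ± 654 to 21146 ± 4884 (1.33, SE 0.23, adjusted p = 0.00188). Leaving out any library kept both calls, but without the eBayes trend neither was called (adjusted p = 0.0937 and 0.0802, the highest over 19 alternatives, the lowest being 4.37e-05 and 2.21e-05). The other ezrin-family genes had -0.26 for Rdx and -0.82 for Msn, which encodes moesin (adjusted p = 0.588 and 0.107). At an unadjusted p under 0.05, 2 of the list were lower, and edgeR called 0 lower. Without mutant 2, limma called 1 lower.

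Of 8 sheddase genes, which cut surface mucins or process the stubs, 0 were called in either direction by limma, edgeR or DESeq2, with 1 higher at an unadjusted p under 0.05. Ncstn, a subunit of gamma-secretase, had 0.61 (SE 0.24, adjusted p = 0.138) and was called without mutant 2 (0.80), and Adam10 had 0.53 (SE 0.25, adjusted p = 0.230). The list's median was 0.25.

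Genes of hyaluronan and of CD44 ligands had 1 higher, 3 lower and 10 not called of 14, at a median of -0.53. Spp1, which encodes osteopontin, rose from 7051 ± 1234 to 65372 ± 48694 (2.95, SE 0.41, adjusted p = 0.000363), 9.27-fold and 5.42-fold without mutant 1. Vcan, which encodes the hyaluronan-binding proteoglycan versican, fell to 33.4% of the control level (-1.88, SE 0.41, adjusted p = 0.0107), or 17.0% without mutant 2, and was not called without control 1 (-1.92), control 3 (-1.71) or mutant 3 (-1.52). The hyaluronan synthase genes Has1 and Has2 fell to 49.1% and 45.1% (-1.17 and -1.41, adjusted p = 0.0405 and 0.0441), or 32.6% and 28.6% without mutant 2. Leaving out any library other than mutant 2 ended both calls, at -1.20 to -0.95 for Has1 and -1.47 to -0.83 for Has2, and edgeR called 1 lower gene of the list. Without mutant 2 the list had 5 lower.

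Of 11 binding partners 2 rose, 2 fell and 7 were not called, at a median of 0.31. Erbb2, which encodes the receptor that Muc4 binds in the rat, rose from 11144 ± 1138 to 24805 ± 7887 (1.11, SE 0.24, adjusted p = 0.0106), and Met, which encodes the receptor that MUC20 binds in human cells, from 8073 ± 1057 to 16454 ± 5563 (0.98, SE 0.25, adjusted p = 0.0253). Erbb2 was not called without control 2 (1.02) or control 3 (1.15), and Met not without any library other than mutant 2 (0.73 to 1.08). Lgals1, which encodes galectin-1, fell to 40.7% (-1.49, SE 0.37, adjusted p = 0.0213), or 24.5% without mutant 2, and Kdr, which encodes the VEGF receptor that Mcam assists, to 53.2% (-0.95, SE 0.25, adjusted p = 0.0310). Both calls held without mutant 2 and were lost without any other library, at -1.67 to -1.12 for Lgals1 and -1.04 to -0.81 for Kdr. The list had 4 higher without mutant 2 and 0 without control 2 or control 3.

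**Figure D5:**
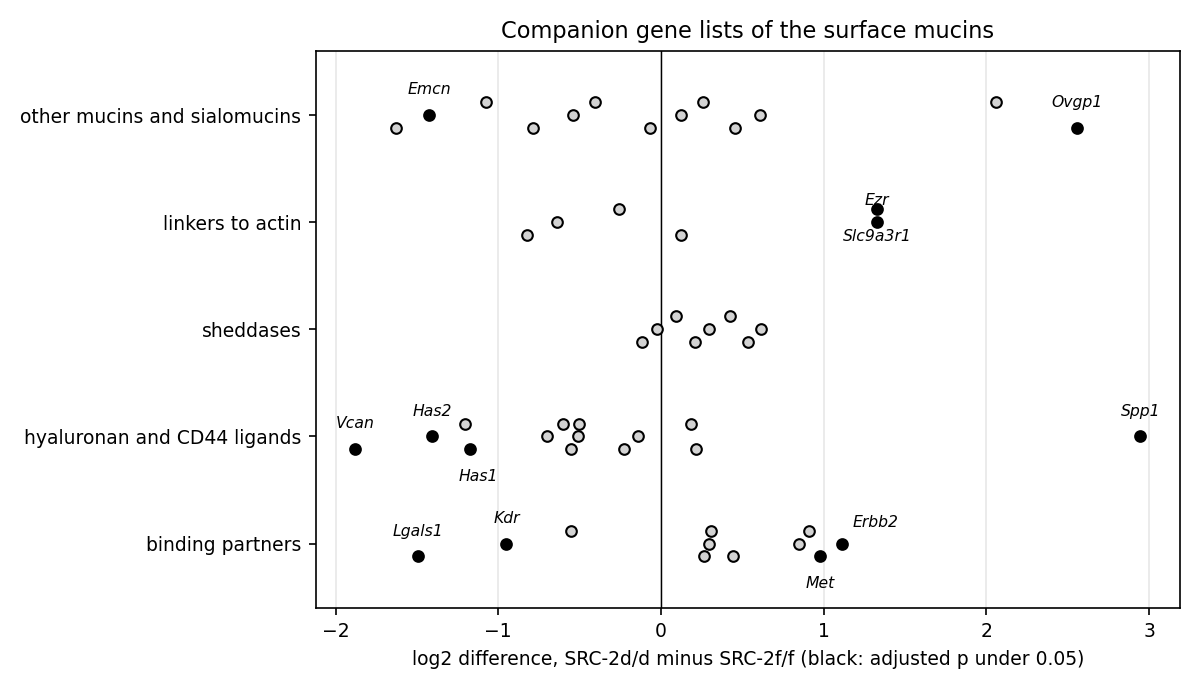
Log2 difference (x, SRC-2d/d minus SRC-2f/f) of each gene of the 5 companion lists, in black and named where called. Ovgp1, Ezr, Slc9a3r1, Spp1, Erbb2 and Met lie above 0 and Emcn, Vcan, Has1, Has2, Lgals1 and Kdr below it, and no sheddase gene is called.

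Profiles close to those of the 4 called members were sought among the 17979 genes that averaged 100 or more over controls and mutants together. Closeness was the root-mean-square difference of centred log2 values over the 6 libraries. Nearest to Muc1 were Gm52981 (0.25), Hgfac (0.26), which encodes the activator of the MET ligand HGF, Tex49 (0.32) and Fyb2 (0.32). Nearest to Muc4 were Plet1os (0.18), Padi3 (0.36), the cystine transporter gene Slc7a11 (0.37) and Muc20 (0.37). Nearest to Muc20 were Cfi (0.23), which encodes complement factor I, Shisa2 (0.35), the iron exporter gene Slc40a1 (0.36) and Muc4 (0.37). Gm52981, Tex49, Padi3 and Shisa2 averaged under 100 in controls and entered the search only through their mutant levels. Padi3 was the lowest of them, at 17.6, 5.35 and 10.2 in controls 1 to 3, so its control values carry a large counting error.

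Muc4 and Muc20 were thus among the 4 nearest genes of each other, while Muc1 lay 0.90 from Muc4 and 0.87 from Muc20. Nearest to Mcam were Ift57 (0.06), Nipa1 (0.06), Slc30a4 (0.06) and Tmem263 (0.06), and Podxl lay 0.20 from it. The measure contains the difference between genotypes and is a description of these 6 libraries.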

How the data were processed

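RNA of 3 control and 3 mutant uteri was sequenced from stranded, poly(A)-selected libraries, per the labels' protocols. Per the submitters' processing notes, the tools were HISAT2, HTSeq and DESeq; the sources used here give no genome build, annotation or strand setting. The authors deposited a table headed FPKM whose values are a signal made of gene counts divided by a size factor: in each library 100% of values were whole multiples of the smallest (tolerance 1e-06), which gave back whole reads.

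The test was limma 3.58.1 (R 4.3.3; lmFit, then eBayes with a mean-variance trend) applied to log2 of the normalized count plus 1, for 36154 genes with a mean of at least 0.5, genotype as the only term, Benjamini-Hochberg adjusted p under 0.05. Fold changes on this scale understate those of low genes, and a log2 difference is one of mean logs, so it can differ from the ratio of means. Alternatives were pseudocounts, filters, scalings, variance models, array weights, the replicate block, each library left out, edgeR 4.0.16 and DESeq2 1.42.0 on whole reads. edgeR called 1996 genes higher and 1293 lower. The procedure was also run on simulated data, and the outcome of that run is not reported here. Limits of detection cover counting error only.

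Members, lists and tests were chosen with earlier results of these data known. Named genes are the members, Ncoa2, from each list the 4 called genes of smallest adjusted p (or 2 of smallest p if none was called), called neighbours and the 4 nearest profiles; other list genes and neighbours were named after their values were seen.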

Additional observations from a re-analysis of the deposited data

How the results depend on the processing

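Muc1, Muc4 and Muc20 were the 3 members called higher under all 19 alternatives but eBayes without trend, which kept Muc4 and Muc20 and left Muc1 at 3.70 without a call. The count of lower members was 1, and 2 with quantile normalization, equal library totals and robust eBayes (Mcam with Podxl, at -0.91, -0.89 and -0.84 for Podxl), 0 with eBayes without trend (Mcam at -0.95), and 0 to 2 with 1 library left out. With 1 library left out, the log2 difference ran from -1.12 to -0.69 for Podxl and from -1.12 to -0.78 for Mcam, and crossed 0 for Muc15 (-0.58 to 0.70) and Muc16 (-0.31 to 0.32), as it did for Muc16 with array weights (-0.15).

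In the same fits the companion lists had 0 to 2 lower (other mucins), 0 to 1 lower (linkers), 0 to 1 higher (sheddases), 0 to 5 lower (hyaluronan, 1 by edgeR), and 0 to 4 higher and 0 to 2 lower (binding partners). Calls over all genes moved as well. With 1 library left out they were 1013 to 2598 higher and 315 to 2813 lower, against 1929 and 1476 with all libraries. With eBayes without trend they were 683 and 315. The causes were not tested. With the replicate number as a block the counts were again 3 higher and 1 lower. Same-numbered libraries deviated together at 0.376, 0.015 and 0.027, so the numbers were not taken as pairs, and not every library was closest to its own number. Depth limits Muc15, which had 1 to 14 reads per library.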

Other observations

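Further marker lists were set against the members after their values were seen, as within-library log2 differences. Relative to the 7 endothelial markers, Podxl stood at 0.80, 0.46 and 0.39 in controls 1 to 3 and at 0.93, 0.70 and 0.89 in mutants 1 to 3, and Mcam at 0.62, 0.66 and 0.64 and at 0.87, 0.48 and 1.12. The groups overlapped for both, and the differences of 0.29 and 0.19 had exact two-sided permutation p = 0.2 and 0.4. Mcam differed by -0.34 relative to pericyte markers, with overlapping groups (p = 0.2 by the same exact test). Relative to smooth-muscle markers it stood at -2.82, -2.63 and -2.25 in controls 1 to 3 and at -3.04, -2.85 and -2.82 in mutants 1 to 3, a difference of -0.34 with no overlap, although control 1 and mutant 3 were equal to 2 decimals (p = 0.1 by the same exact test, the smallest possible). Relative to stromal markers the differences were 0.11 for Podxl, 0.00 for Mcam and 0.46 for Cd44 (p = 0.4, 1 and 0.2 by the same exact test). Muc16 differed by -0.17 relative to mesothelial markers (p = 0.6 by the same exact test). A p that misses the threshold does not show that a ratio was equal.

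Muc4 changed more than Muc1. The normalized count of Muc1 was 2.02, 3.23 and 2.82 times that of Muc4 in controls 1 to 3 and 0.596, 0.803 and 1.23 times in mutants 1 to 3, without overlap (difference of 1.65 in log2 of Muc4 over Muc1, exact two-sided permutation p = 0.1, the smallest possible). This comparison was also chosen after the values were seen.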
